A study of Mus musculus with 23 samples.

Results

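The oxaliplatin effect in subcutaneous white fat was set against the oxaliplatin effect in tibialis anterior muscle of C57BL/6 mice. The comparison uses 16 of the 23 RNA-seq libraries of the series, chosen by tissue, and takes for each gene the oxaliplatin minus vehicle difference in fat minus the same difference in muscle. Muscle gave 4 vehicle and 5 oxaliplatin libraries, and fat gave 3 vehicle and 4 oxaliplatin libraries. The treated mice received oxaliplatin at 10 mg/kg, the controls received vehicle, and tissue was taken after 8 weeks of treatment; the sources used here give no further genotype, no age and no hour of collection. The muscle library titled as oxaliplatin mouse 5 carries a treatment entry of vehicle and was counted as oxaliplatin, as its title has it. Muscle libraries were made with a Clontech SMARTer kit and fat libraries with a RiboErase kit, so kit and tissue cannot be told apart, and levels were compared within a tissue only. Genes were joined by symbol: 19902 symbols were in both tables and 14088 passed the filter on low counts in each tissue.

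Oxaliplatin is a platinum drug given against colorectal cancer that crosslinks DNA. The tibialis anterior is a fast muscle of the shin that burns glucose, and subcutaneous white fat stores lipid and secretes hormones. Both tissues hold a circadian clock, in which the factors BMAL1 and CLOCK bind E-boxes, with the sequence CACGTG, and switch on their own repressors, among them Nr1d1, Ciart, Bhlhe40 and Bhlhe41.

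The promoter stretches of 3 of those repressors and of Pfkfb3 are shown because these genes are among those whose response differed between the tissues (values below). They come from RefSeq windows of 250 bases before each start on GRCm38.p6, all on the minus strand, ended where an annotated exon begins, with CACGTG in capitals. A second RefSeq start inside Pfkfb3 gave the window printed for it.

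Ciart, chr3:95882252-95882478: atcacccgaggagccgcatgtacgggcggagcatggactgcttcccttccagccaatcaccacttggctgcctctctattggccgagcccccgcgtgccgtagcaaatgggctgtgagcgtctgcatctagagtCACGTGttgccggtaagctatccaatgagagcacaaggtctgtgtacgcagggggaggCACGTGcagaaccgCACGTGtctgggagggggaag

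Bhlhe41, chr6:145865559-145865670: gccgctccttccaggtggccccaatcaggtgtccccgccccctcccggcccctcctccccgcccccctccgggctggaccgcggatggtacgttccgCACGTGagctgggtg

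Nr1d1, chr11:98775378-98775627: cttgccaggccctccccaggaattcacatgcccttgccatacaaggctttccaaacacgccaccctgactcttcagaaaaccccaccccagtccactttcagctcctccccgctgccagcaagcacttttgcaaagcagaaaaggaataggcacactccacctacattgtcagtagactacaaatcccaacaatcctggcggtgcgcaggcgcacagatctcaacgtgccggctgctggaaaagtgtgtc

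Pfkfb3, chr2:11502102-11502340: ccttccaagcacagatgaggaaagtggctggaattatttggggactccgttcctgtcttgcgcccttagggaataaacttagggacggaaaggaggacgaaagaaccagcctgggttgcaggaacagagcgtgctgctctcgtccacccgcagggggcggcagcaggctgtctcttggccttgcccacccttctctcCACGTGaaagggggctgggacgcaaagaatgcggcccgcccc

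The Ciart window held 3 copies of CACGTG, whose first bases lie 116, 58 and 44 bases before the RefSeq start. The Bhlhe41 window held 1 copy at 153 bases, and the window of the inner Pfkfb3 start held 1 copy at 53 bases. The window of the outer Pfkfb3 start and that of Nr1d1 held none. The motif equals its own reverse complement, so 1 search covers both strands, and no other motif was searched. It occurred in 6.02% of all 32851 RefSeq windows of this length. Of the 47 genes called below that have a window, 8 held it, or 17.0%, against 9.81% of the 10163 tested genes with a window. Ciart, Bhlhe41 and Pfkfb3, shown because they were called, are among the 8. The motif was looked at with these calls known, so this share is a description. A match says that these letters are present and nothing on binding.

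Total counts ran from 22427670 to 32151271 per muscle library and from 16458523 to 22748362 per fat library. The tissue labels matched the defining markers: Acta1, a muscle actin, was at 65061 CPM or more in every muscle library, and Adipoq, the adiponectin gene, was at 391 CPM or more in every fat library. Levels are given as CPM, a library's count relative to its total after TMM scaling over the 16 libraries. A pair of fat libraries stood apart. Vehicle fat 4 held 20 skeletal muscle markers at a summed 92050 CPM, against 30.6 to 2455 CPM in the other 6 fat libraries. Oxaliplatin fat 5 stood apart from the other oxaliplatin fat libraries: its summed adipocyte markers were at 26442 CPM against 16678 to 18147 CPM in the other oxaliplatin fat libraries, and its summed fibroblast markers at 8401 CPM against 1918 to 2543 CPM. Both sums lay within the vehicle fat ranges, 23375 to 31484 CPM for adipocyte and 6380 to 8481 CPM for fibroblast markers. The count of called genes is given below with and without vehicle fat 4 and oxaliplatin fat 5.

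**Figure D1:**
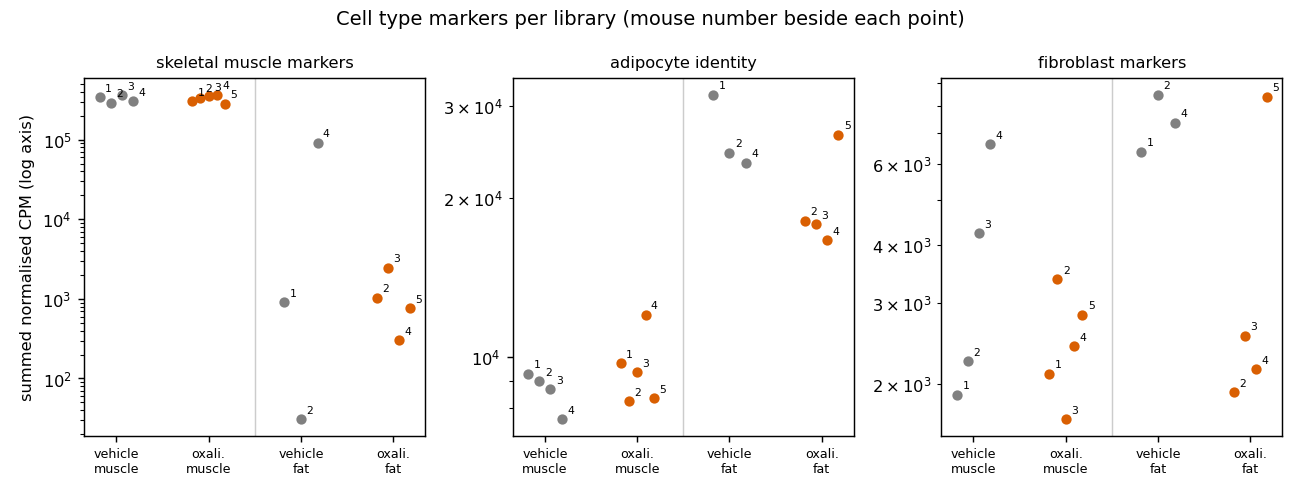
Summed CPM (log axis) of the skeletal muscle, adipocyte and fibroblast marker lists in each of the 16 libraries, with the mouse number beside each point; vehicle is grey and oxaliplatin orange. Vehicle fat 4 lies above the other fat libraries for skeletal muscle markers, and oxaliplatin fat 5 lies above the other oxaliplatin fat libraries for adipocyte and fibroblast markers.

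The glycolysis regulator Pfkfb3 fell in fat and rose in muscle, and so did the clock repressor Nr1d1. Sfrp5 and Golga7b also fell in fat, while Rgs2 rose there, and all had muscle values on the other side of 0. In all, 67 of 14088 genes had a different response in the 2 tissues by edgeR's quasi-likelihood test with Benjamini-Hochberg adjustment at 0.05, or 0.476% of those tested. For 20 of them (0.142% of genes tested) the effect was higher in fat than in muscle, and for 47 (0.334%) it was lower. At an unadjusted p under 0.05 the count was 2665, or 18.9%.

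The spread of effects was wider in fat. Over all genes tested, the SD of the estimated log2 effect was 0.79 in fat and 0.38 in muscle. This SD takes in noise between libraries, and fat had fewer and shallower libraries, so it is not a measure of response size alone. The same fit, with 1 dispersion per gene for both tissues, called 1745 genes for the fat effect (12.4%, with 6.21% higher and 6.18% lower). It called 31 for the muscle effect (0.220%, with 0.192% higher and 0.0284% lower). With each tissue fitted on its own the order of these counts turned, with 4 genes called for fat and 22 for muscle (3943 and 1336 at an unadjusted p under 0.05). Of the 67 genes, 55 had the larger effect in fat. In 29 of the 67 the 2 effects had opposite signs, each with an unadjusted p under 0.05, against 0.752% of all genes; the call selects on the difference, so this share is a description. A further 33 passed that p in fat only, 4 in muscle only, and 1, Bhlhe41, passed in both with the same sign. The vehicle and oxaliplatin libraries did not overlap in fat for 59 of the 67 (23.5% of all genes tested) and in muscle for 27 (3.83%). They did not overlap in either tissue, and the groups differed in opposite directions, for 18 (0.263%).

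The count of 67 depended on single libraries. It was 1732 (12.3% of genes tested) without oxaliplatin fat 5, 34 (0.241%; 0.0354% higher and 0.205% lower) without vehicle fat 4, and 1468 (10.4%; 4.82% higher and 5.59% lower) without both. With each tissue fitted on its own it was 29 (0.206%, with 0.0497% higher and 0.156% lower). There the difference was tested on limma-voom coefficients by a t test for unequal variances, so the method changed along with the fit. Without any 1 of the other libraries it lay between 15 and 43, except for 240 without vehicle fat 2. With the muscle library whose entries conflict set to vehicle it was 22. The 31 calls for muscle became 0 without vehicle muscle 2, vehicle muscle 3 or oxaliplatin muscle 1, or with the conflicting library set to vehicle (1192, 1021, 1008 and 744 genes at an unadjusted p under 0.05). Where a muscle and a fat library carry the same mouse number they may come from 1 animal; with that number as a block the count was 2, Hr and Igkc, against 14 in the same 7 mice with no block, and all 67 genes kept their direction. Of the 67 genes, 12 were called in each of the 16 fits that left out 1 library: Pfkfb3, Sfrp5, Golga7b, Nr1d1, Ciart, Bhlhe40, Bhlhe41, Synpo2, Stbd1, Fgf1, Fgf13 and Tmem246. In bulk tissue, fewer cells of a type and less RNA per cell cannot be told apart.

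**Figure D2:**
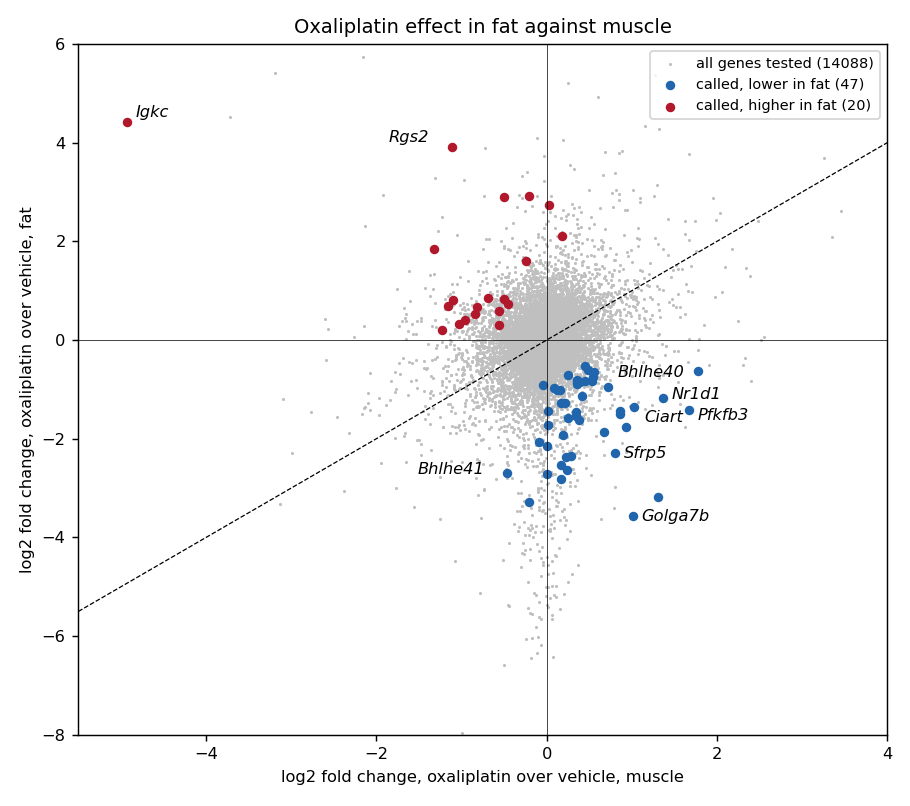
Log2 fold change of oxaliplatin over vehicle in muscle (x axis) and fat (y axis) for the 14088 genes tested; the dashed line marks equal effects. Blue points are the 47 genes called lower in fat, red points the 20 called higher, and the spread of all genes is wider along the fat axis.

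Pfkfb3 encodes the enzyme that makes fructose 2,6-bisphosphate, the activator of phosphofructokinase, and lies on chromosome 2 (11471433 to 11554077, minus strand, GENCODE M21 on GRCm38). In vehicle muscle its CPM were 114, 74.96, 88.4 and 89.3, and in oxaliplatin muscle 260, 310, 303, 251 and 339. In vehicle fat they were 539, 650 and 659, and in oxaliplatin fat 142, 131, 181 and 464. The arms did not overlap in either tissue; the conflicting muscle library, at 339, was the highest of its tissue, and oxaliplatin fat 5, at 464, was the closest to vehicle fat. Muscle means were 91.6 ± 16 (SD, n = 4) with vehicle and 293 ± 37 (SD, n = 5) CPM with oxaliplatin, and the vehicle fat mean was 616 ± 67 (SD, n = 3) CPM. Pfkfb3 rose 3.19-fold in muscle (log2 1.68, SE 0.31, adjusted p = 0.0404) and fell by 1.43 on the log2 scale in fat (SE 0.34, adjusted p = 0.0180). The difference between tissues was -3.10 (SE 0.46, edgeR adjusted p = 0.0130). It was -3.72 without oxaliplatin fat 5. Its edgeR adjusted p was 0.0974 with the conflicting library set to vehicle and 0.160 with mouse as a block. With each tissue fitted on its own, the adjusted p was 0.0533 by limma-voom.

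Sfrp5 encodes a secreted Wnt inhibitor made by fat cells and lies on chromosome 19 (42197971 to 42202252, minus strand). Its CPM were 45.0, 75.8 and 70.9 in vehicle fat and 10.8, 15.7, 14.4 and 11.7 in oxaliplatin fat. In muscle they were 7.78, 8.55, 4.76 and 5.09 with vehicle and 10.5, 16.8, 9.34, 6.40 and 13.9 with oxaliplatin. The fat arms were far apart, with oxaliplatin fat 5 among the other treated libraries, and the muscle arms overlapped. The fat means were 63.9 ± 17 (SD, n = 3) and 13.1 ± 2.3 (SD, n = 4) CPM. Sfrp5 fell by 2.28 on the log2 scale in fat (SE 0.29, adjusted p = 0.00204), and its muscle effect was 0.80 (SE 0.27, adjusted p = 0.320). The difference was -3.09 (SE 0.39, edgeR adjusted p = 0.00576). Its adjusted p was 0.195 by edgeR with mouse as a block and 0.00108 by limma-voom with each tissue fitted on its own.

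Golga7b encodes a partner of palmitoyl transferases, the enzymes that attach palmitate to proteins, and lies on chromosome 19 (42247574 to 42270348, plus strand). Vehicle fat gave 3.00, 1.01 and 2.23 CPM and oxaliplatin fat 0.065, 0.20, 0.057 and 0.38 CPM, from 2, 6, 2 and 11 counts. Vehicle muscle gave 8.22, 5.53, 7.27 and 6.29 CPM and oxaliplatin muscle 12.4, 12.03, 14.7, 16.9 and 12.7 CPM. The arms did not overlap in either tissue, and the low arm of fat rested on few counts. Golga7b had the smallest adjusted p of the comparison: its effect fell by 3.57 in fat (SE 0.45, adjusted p = 0.00204), was 1.01 in muscle (SE 0.31, adjusted p = 0.278), and differed by -4.58 (SE 0.55, edgeR adjusted p = 0.00501). The adjusted p was 0.0566 by limma-voom with each tissue fitted on its own and 0.160 by edgeR with mouse as a block.

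Rgs2 encodes a protein that shuts off signalling by G protein-coupled receptors and lies on chromosome 1 (143999338 to 144004161, minus strand). It was at 5.54, 5.28 and 3.88 CPM in vehicle fat and at 104, 102, 80.7 and 8.00 CPM in oxaliplatin fat. In muscle it was at 7.84, 5.09, 3.40 and 4.72 CPM with vehicle and at 1.31, 3.22, 2.66, 2.26 and 2.77 CPM with oxaliplatin. The arms did not overlap in either tissue, but oxaliplatin fat 5 stood close to vehicle. The fat means were 4.90 ± 0.89 (SD, n = 3) and 73.8 ± 45 (SD, n = 4) CPM. Rgs2 rose 15.1-fold in fat (log2 3.91, SE 0.66, adjusted p = 0.00606), and its muscle effect was -1.11 (SE 0.56, adjusted p = 0.614). The difference was 5.02 (SE 0.84, edgeR adjusted p = 0.0250). The call was made in 7 of the 16 fits that left out 1 library, and without vehicle fat 4 the difference was 4.85 with an edgeR adjusted p of 0.0602. By limma-voom the adjusted p was 0.142 on all libraries and 0.134 with each tissue fitted on its own.

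**Figure D3:**
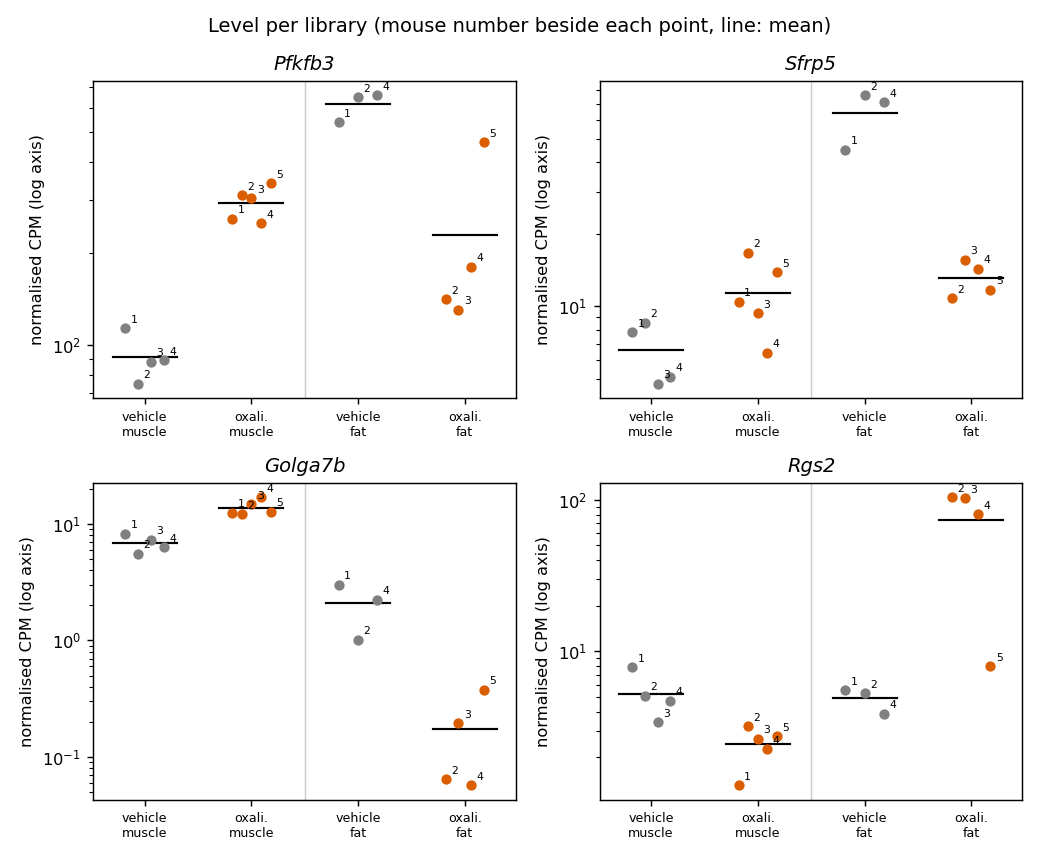
CPM (log axis) of Pfkfb3, Sfrp5, Golga7b and Rgs2 in each library, with the mouse number beside each point and a line at the group mean; vehicle is grey and oxaliplatin orange. Pfkfb3 and Golga7b are higher with oxaliplatin in muscle and lower in fat, and Rgs2 is the reverse, with oxaliplatin fat 5 closest to vehicle for Pfkfb3 and Rgs2.

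Clock repressors were among the called genes: 4 of the 20 tested genes of the clock and its output were called lower in fat, and none higher, against 0.334% and 0.142% of all genes. The median difference over the 20 was 0.11, against 0.04 over all genes tested. Nr1d1, which encodes REV-ERB alpha, a repressor of Bmal1, was at 161, 133, 90.8 and 106 CPM in vehicle muscle and 268, 411, 320, 343 and 247 CPM in oxaliplatin muscle. In fat it was at 163, 257 and 183 CPM with vehicle and 88.5, 64.8, 62.9 and 140 CPM with oxaliplatin. The arms did not overlap in either tissue. Nr1d1 rose 2.59-fold in muscle (adjusted p = 0.0418) and fell by 1.18 on the log2 scale in fat (adjusted p = 0.0187), and the edgeR difference was -2.55 (SE 0.38, adjusted p = 0.0130).

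Ciart, a repressor that acts on BMAL1 and CLOCK, was at 8.23, 6.13 and 9.17 CPM in vehicle fat and at 3.14, 2.74, 2.98 and 3.37 CPM in oxaliplatin fat. Its muscle libraries gave 24.9, 20.8, 16.7 and 14.3 CPM with vehicle and 22.4, 44.6, 53.6, 46.8 and 27.5 CPM with oxaliplatin, where only oxaliplatin mouse 1 lay within the vehicle range. Ciart fell by 1.36 in fat (adjusted p = 0.0104), its muscle effect was 1.03 (adjusted p = 0.113), and the difference was -2.38 (SE 0.36, edgeR adjusted p = 0.0133). Bhlhe40, which encodes the repressor DEC1, was at 62.8, 80.5 and 82.5 CPM in vehicle fat and 43.2, 35.7, 43.2 and 32.4 CPM in oxaliplatin fat. Its muscle libraries ran from 203 to 283 CPM with vehicle and from 314 to 484 CPM with oxaliplatin. Neither pair of arms overlapped, and the difference was -1.68 (SE 0.24, edgeR adjusted p = 0.0130), with an adjusted p of 0.0501 where the conflicting library was set to vehicle.

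Bhlhe41, the partner of Bhlhe40 that encodes DEC2, was the single called gene lower with oxaliplatin in both tissues at an unadjusted p under 0.05. Vehicle fat gave 52.3, 54.7 and 75.2 CPM and oxaliplatin fat 6.76, 6.63, 9.84 and 14.5 CPM. Vehicle muscle ran from 322 to 388 CPM and oxaliplatin muscle from 214 to 303 CPM. The arms did not overlap in either tissue, and the gap was wider in fat. Bhlhe41 fell by 2.69 in fat (adjusted p = 0.000141), its muscle effect was -0.47 (adjusted p = 0.541), and the difference was -2.22 (SE 0.32, edgeR adjusted p = 0.0130).

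Other clock genes were not called for the difference. Arntl, which encodes BMAL1, had a fat effect of 2.87 and a muscle effect of 1.09, and Nfil3, which opposes the output factors, had 3.04 and 0.50. Dbp, an output activator, had -2.48 in fat and -0.08 in muscle, and Per3 had -1.11 and -0.25. Their adjusted p for the difference ran from 0.117 for Nfil3 to 0.182 for Dbp. Nr1d1 overlaps Thra on the opposite strand, and Bhlhe40, Ciart and Pfkfb3 overlap antisense genes; the sources used here do not say whether counting used strand, so reads of such partners cannot be told apart. Without oxaliplatin fat 5, 8 of the 20 were called lower (6.66% of all genes) and 3 higher (5.68%).

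**Figure D4:**
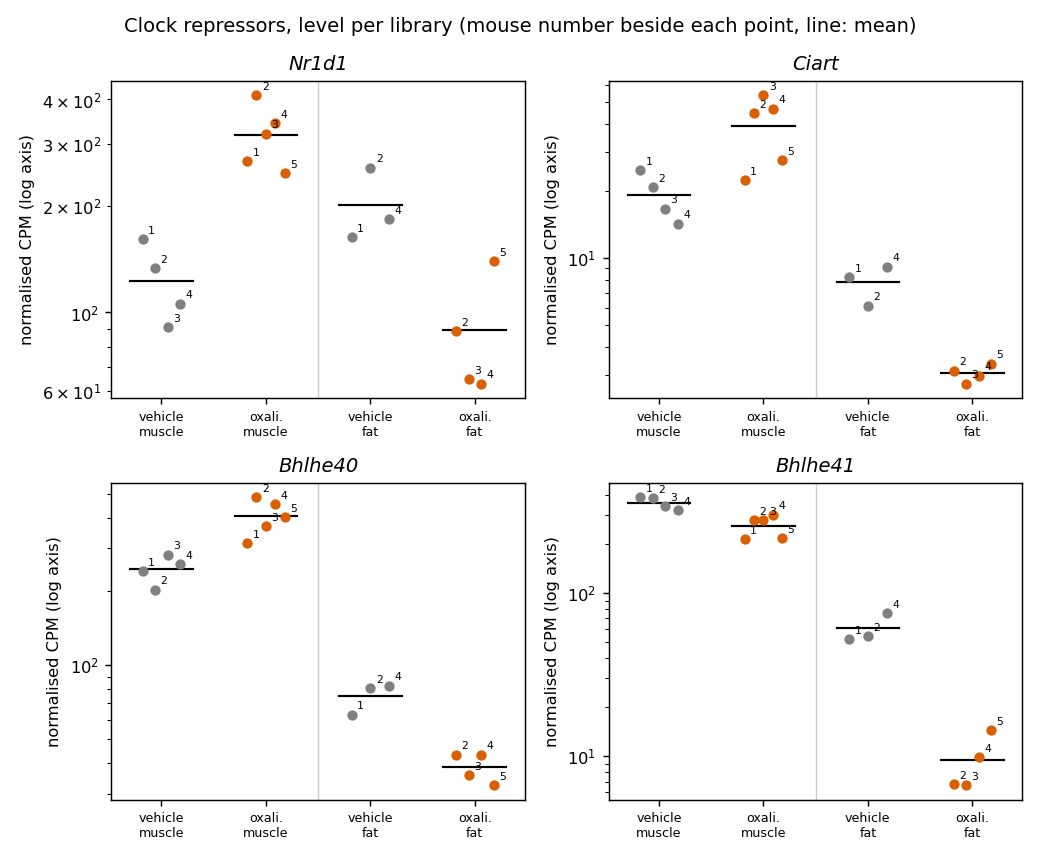
CPM (log axis) of the clock repressors Nr1d1, Ciart, Bhlhe40 and Bhlhe41 in each library, with the mouse number beside each point and a line at the group mean; vehicle is grey and oxaliplatin orange. Nr1d1 and Bhlhe40 separate by treatment in opposite directions in the 2 tissues, and Bhlhe41 is lower with oxaliplatin in both.

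Hr, Fam20c and Mest were called lower in fat, fell there and had small muscle effects. Hr, a corepressor of nuclear receptors, went from 72.7, 91.3 and 96.4 CPM in vehicle fat to 4.85, 6.44, 4.45 and 20.0 CPM with oxaliplatin, a difference of -3.07 (SE 0.59, edgeR adjusted p = 0.0426). Fam20c, a kinase of secreted proteins, went from 65.6, 47.3 and 32.8 CPM to 4.30, 5.85, 5.05 and 12.2 CPM, with a difference of -2.99. Mest, an imprinted gene linked to fat cell growth, went from 54.9, 26.3 and 74.3 CPM to 9.09, 7.65, 7.97 and 15.5 CPM, with a difference of -2.59. None of the 3 had overlapping arms in fat, and their muscle effects lay between -0.21 and 0.22. Without vehicle fat 4, Fam20c stayed called (-3.25, adjusted p = 0.0215), and Hr and Mest had -3.03 and -2.27 with an adjusted p of 0.0746 each.

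Synpo2, Cryab and Popdc2, which were also called lower in fat, are expressed in striated muscle. None of the 20 skeletal muscle markers was called for the difference, but all 20 had a negative difference, with a median of -5.15. Of these markers, 18 had an unadjusted edgeR p under 0.05, and without vehicle fat 4 their median was 1.36. Synpo2, an actin-bundling protein of the Z-disc, was at 180, 182 and 357 CPM in vehicle fat and at 22.5, 37.1, 24.8 and 61.2 CPM in oxaliplatin fat, a difference of -2.72 (SE 0.42, edgeR adjusted p = 0.0133). Cryab, a small heat shock protein, was at 45.6, 39.2 and 119 CPM and then at 5.98, 11.9, 6.196 and 19.4 CPM, a difference of -2.88. Popdc2, a membrane protein of heart and skeletal muscle, was at 6.03, 4.86 and 13.9 CPM and then at 0.65, 0.98, 1.15 and 2.92 CPM, a difference of -2.71. In each, vehicle fat 4, the library with skeletal muscle markers, was the highest, and the other 2 vehicle libraries still lay above every oxaliplatin library. Without vehicle fat 4 the differences were -2.35 for Synpo2 (adjusted p = 0.0215), -2.24 for Cryab (adjusted p = 0.0602) and -2.14 for Popdc2 (adjusted p = 0.0746). Over the 47 genes, vehicle fat 4 was the highest vehicle fat library in 23, against 35.8% of all genes tested, and 46 of the 47 had fat arms that did not overlap with it or without it (23.5% and 32.3% of all genes tested). Cryab overlaps Hspb2 on the opposite strand.

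Genes called higher in fat were fewer and less stable. Tcn2, a carrier of vitamin B12, went from 40.8, 37.1 and 41.5 CPM in vehicle fat to 253, 191, 183 and 62.1 CPM with oxaliplatin, a difference of 1.94 (SE 0.40, edgeR adjusted p = 0.0458). Bcat2, which starts the breakdown of branched-chain amino acids, went from 73.1, 79.1 and 70.8 CPM to 352, 229, 203 and 121 CPM, a difference of 1.85; the antisense gene 0610005C13Rik, which overlaps it, was also called higher. Flvcr2, a transporter of the major facilitator family, went from 1.18, 1.57 and 1.02 CPM to 16.2, 12.7, 6.63 and 2.47 CPM, a difference of 3.12. In each, the fat arms did not overlap, oxaliplatin fat 5 was the lowest treated library, and the muscle effect lay between -0.24 and 0.17. Without vehicle fat 4 the differences were 1.95, 1.79 and 2.97 in that order, each with an adjusted p of 0.0812.

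A second kind of call higher in fat came with a negative muscle effect. P3h4, a cofactor of collagen hydroxylation, fell by 1.23 in muscle (adjusted p = 0.0232), from 2.66, 3.84, 3.45 and 3.23 CPM to 1.06, 1.70, 1.60, 1.01 and 1.69 CPM, with a fat effect of 0.21 and a difference of 1.44. Pqlc2, a lysosomal exporter of basic amino acids, had 3.26, 4.04 and 3.60 CPM in vehicle fat and 5.69, 6.89, 6.94 and 6.39 CPM in oxaliplatin fat, and its muscle effect was -0.50. Its difference of 1.33 (SE 0.22, edgeR adjusted p = 0.0170) was the single one of the 20 calls higher in fat that held without vehicle fat 4. Other called genes with opposite signs in the 2 tissues were Vps37b, Il17ra, Txndc11 and Rell1 higher in fat, with differences from 1.15 to 1.55, and Carmn, Sh3tc1, Dapk2 and Slc8a1 lower, with differences from -2.37 to -0.98.

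Igkc, the constant region of the antibody kappa light chain, had the largest difference, 9.35 (SE 1.89, edgeR adjusted p = 0.0461), from values that scattered widely. Oxaliplatin fat gave 2.36, 138, 87.0 and 136 CPM and vehicle fat 0.68, 5.12 and 6.81 CPM. Vehicle muscle gave 0.95, 2.14, 25.9 and 5.59 CPM, and no oxaliplatin muscle library was above 0.53 CPM. The fat arms overlapped at oxaliplatin fat 2, and the call was made in 3 of the 16 fits that left out 1 library. The B cell marker Cd79a was at 0.38, 0.78 and 0.48 CPM in vehicle fat and at 0.13, 3.10, 5.28 and 19.6 CPM in oxaliplatin fat. Ighm, the heavy chain of IgM, lay the other way in 3 of the 4 treated libraries, with 59.7, 67.4 and 88.2 CPM in vehicle fat and 0.94, 26.9, 37.1 and 104 CPM in oxaliplatin fat. Of the 20 listed lymphocyte genes, 4 passed the filter, and 16, Igkc and Ighm among them, entered the sum. This sum ran from 68.6 to 101 CPM in vehicle fat and from 9.90 to 405 CPM in oxaliplatin fat. Because it holds Igkc it is not a separate measure, and the part of lymphocyte content in the Igkc result was not tested.

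Sugar use and fat synthesis genes leaned lower in fat than in muscle, with few single calls. Among 25 genes of glycolysis and its regulators, only Pfkfb3, a given marker, was called, and it was lower (0.334% of all genes). Of the 25, 23 had a negative difference, against 6637 of all 14088 genes tested. The median difference was -0.70 against 0.04 over all genes tested. The 3 lowest, Pgam2, Eno3 and Pfkm, are muscle isoforms with differences of -5.38, -4.72 and -3.65, and without vehicle fat 4 the list's median was -0.19. Without oxaliplatin fat 5, 5 of 24 glycolysis genes were called lower (6.66% of all genes) and 1 higher (5.68%). Without vehicle fat 4, 1 of 25 was called lower (0.205% of all genes) and none higher. Pfkl, the liver-type phosphofructokinase, rose in muscle (log2 0.85, adjusted p = 0.0299) with a fat effect of -0.11, and Slc2a1, the glucose carrier GLUT1, rose in fat (log2 1.45, adjusted p = 0.00327) with 0.32 in muscle. Neither was called for the difference, at adjusted p = 0.0596 and 0.0657.

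Among 26 lipogenesis genes, 1 was called lower (0.334% of all genes), and 19 had a negative difference. The median difference was -1.04, and without vehicle fat 4 it was -1.20. The called gene was Scd2, a fatty acid desaturase, at 391, 253 and 258 CPM in vehicle fat and 85.9, 90.6, 106 and 134 CPM in oxaliplatin fat, with a muscle effect of 0.35 and a difference of -1.88 (SE 0.33, edgeR adjusted p = 0.0250). Fasn, the fatty acid synthase, had -2.26 in fat and 0.37 in muscle, and Acly, which supplies acetyl-CoA, -1.09 and 0.30. Members on the other side were Acacb, whose product restrains fatty acid oxidation, with 1.995 in fat and 0.37 in muscle, and Gpam, the first enzyme of triglyceride assembly, with 1.19 and -0.39. Among 22 adipocyte identity genes, Sfrp5, a marker given with the comparison, and Mest were called lower (0.334% of all genes). The median difference was -0.89. Without vehicle fat 4, 1 of the 22 was called lower (0.205% of all genes) and none higher, with a median of -1.03. Without oxaliplatin fat 5, whose adipocyte sum was the highest of the treated fat libraries, 10 of the lipogenesis and 9 of the adipocyte genes were called lower (6.66% of all genes), and 3 of the lipogenesis genes higher (5.68%); the part of adipocyte content in these values was not tested.

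Stress and hormone lists leaned the other way. Over all 14088 genes tested, 7451 had a positive difference and 0.142% were called higher. Of 27 glucocorticoid-responsive genes, only Rgs2, a marker given with the comparison, was called, and 24 had a positive difference. Their medians were 1.08 in fat, 0.56 in muscle and 0.62 for the difference. Fkbp5, a chaperone induced by glucocorticoids, had 2.87 in fat and 1.95 in muscle, and Ddit4, an inhibitor of mTOR signalling, 3.05 and 0.82. Without oxaliplatin fat 5, 6 of the 27 were called higher (5.68% of all genes), and without vehicle fat 4 none was called and the median difference was 1.03. Of 25 genes of the integrated stress and unfolded protein response, 21 had a positive difference and none was called, with a median of 0.51. Without oxaliplatin fat 5, 6 of the 25 were called higher (5.68% of all genes), and without vehicle fat 4 none was called. Xbp1, a factor of that response, had 1.55 in fat and 0.23 in muscle. Of 39 cytosolic ribosomal protein genes, 38 had a positive difference and none was called, with a median of 0.31. Without oxaliplatin fat 5, 2 of the 39 were called higher, a share near the 5.68% of all genes. Without vehicle fat 4 none was called.

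The p53 targets showed no called difference. Cdkn1a, the cell cycle inhibitor p21, rose in fat (log2 3.69) and in muscle (log2 3.26), with a difference of 0.43. Of the 28 targets tested, 2 in each direction had an unadjusted p under 0.05, and the median difference was 0.05, beside effects of 0.57 in fat and 0.34 in muscle. Without oxaliplatin fat 5, 2 of the 28 targets were called higher (5.68% of all genes) and 1 lower (6.66%), and the median difference was -0.02. That median was also -0.02 without vehicle fat 4, where none was called. Trp53inp1, a target that promotes autophagy, had the smallest p of the list, with 3.82 in fat, 0.89 in muscle and an adjusted p of 0.0774 for the difference. The 33 extracellular matrix genes had a median of -0.99 in fat and -0.72 in muscle, with none called for the difference and a median difference of -0.10. Without oxaliplatin fat 5 that median was -1.44, and 13 of the 33 were called lower (6.66% of all genes). Without vehicle fat 4 it was -0.10 and none was called. Oxaliplatin fat 5 had been set apart in these same data by its fibroblast sum, 8401 CPM against 1918 to 2543 CPM in the other treated fat libraries. The shift without it is therefore not a separate result, and the part of fibroblast content was not tested.

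**Figure D5:**
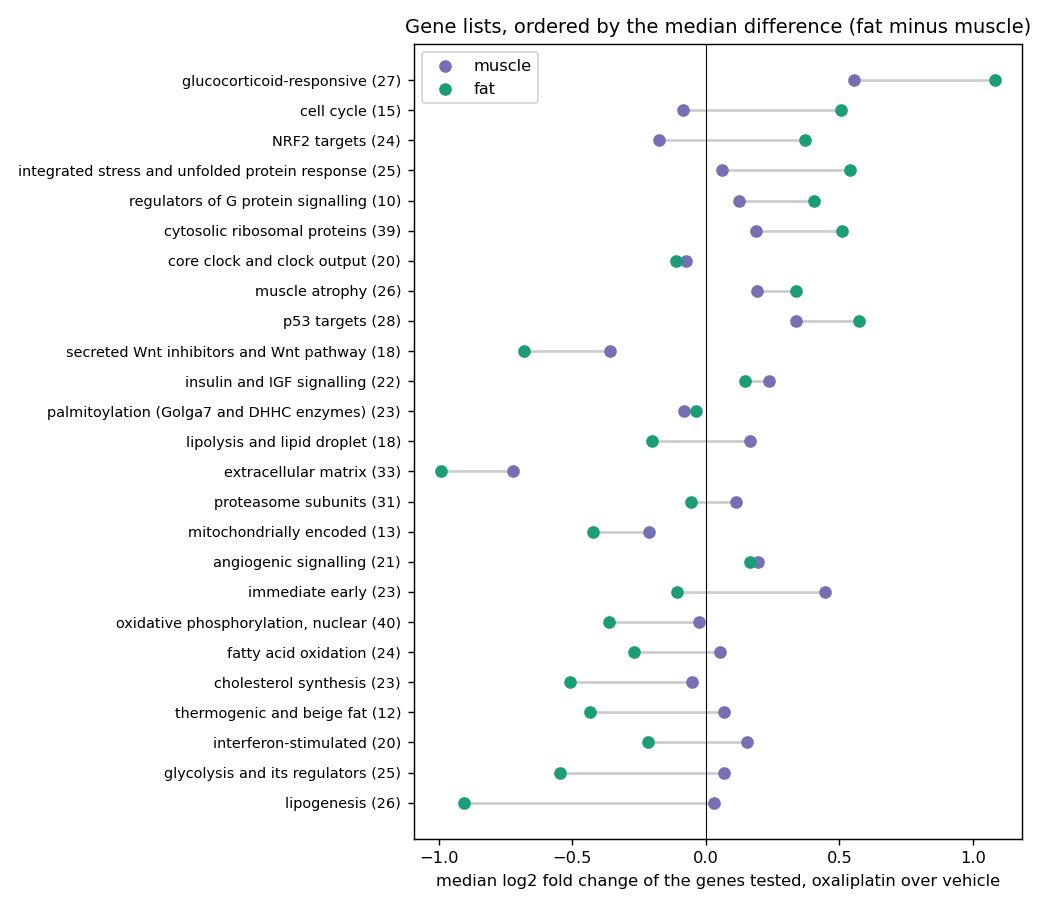
Median log2 fold change of oxaliplatin over vehicle in muscle (purple) and fat (green) for the tested genes of each pathway list, with their number in brackets. Lists are ordered by the median of the gene-wise differences, which need not equal the gap between the points; glucocorticoid-responsive genes lie highest in fat, and lipogenesis and extracellular matrix genes lie lowest.

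In the fit of all 16 libraries, each of the other marker genes was the 1 called member of its family list. Each list holds its marker, which was known to be called, so 1 called member was given in advance. Over all genes this fit called 0.142% higher and 0.334% lower. Of 10 tested regulators of G protein signalling only Rgs2 was called; Rgs4 rose in muscle (log2 1.15, adjusted p = 0.0232) with 0.60 in fat, and Rgs16 rose in fat (log2 1.95) with 1.31 in muscle. Of 23 genes of palmitoylation only Golga7b was called, and its paralog Golga7 had 0.04 in fat and -0.08 in muscle. Of 18 Wnt genes only Sfrp5 was called; the related inhibitors Sfrp2 and Sfrp4 had -1.28 and -1.47 in fat and -2.10 and -2.77 in muscle, and the Wnt receptor Fzd4 had -1.45 and 0.30. The median differences of the palmitoylation and Wnt lists, -0.03 and 0.00, changed sign with the scaling of the libraries. Without oxaliplatin fat 5, 2 of the 10 regulators of G protein signalling were called higher and none lower. In that fit 1 of the 23 palmitoylation genes was called higher and 2 lower, and 3 of the 18 Wnt genes lower and none higher. Over all genes it called 5.68% higher and 6.66% lower.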

How the data were processed

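RNA was extracted with a magnetic bead kit from samples with an integrity number above 8, per the labels' protocols. The submitters' processing notes name STAR 2.5.1a, Partek and DESeq2 but give them no roles, and no build is named there. In each table, gene starts were in 99.5% of cases those of GENCODE M21 on GRCm38, which is used for coordinates, counted from 1. The authors deposited expected counts per gene: 45.7% of the muscle and 41.4% of the fat values were not whole, and no row summed to less than 10. Whole counts had been planned for, and the values were rounded to whole numbers first. A gene was tested where edgeR filterByExpr (minimum count 10, minimum total 15) kept it in each tissue. Of the genes tested, 22 carried joined identifiers.

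A single edgeR 4.0.16 fit (R 4.3.3) of 4 group means over the 16 libraries, with TMM factors, robust dispersion and the quasi-likelihood test, gave both effects and their difference. P-values were adjusted by Benjamini-Hochberg over all 14088 genes at 0.05. The SE is the log2 value over the root of F. The libraries are called mice after the numbers in their titles; where they are not separate animals, p-values measure the spread between samples only. Over the 7 numbers present in both tissues, deviations from the group means correlated by -0.21 to 0.08, and no pair was over 0.1. Replicates of a group were checked for copies and none was found (lowest chi-square per degree of freedom 20.2 over 25 pairs).

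The named genes are the 4 markers given with the comparison, up to 12 of the largest called differences in each direction among named genes at 1 CPM or more in an arm of each tissue, up to 15 called genes with opposite and 5 with the same sign of effect at unadjusted p under 0.05, and up to 4 members per pathway list by p; other list members named were chosen after their values were seen. The members and the 36 gene lists were chosen with earlier results of these data known. The deposited counts give no length, so levels are not compared between genes. Alternatives covered scaling, filters, limma 3.58.1 voom, DESeq2 1.42.0, separate fits, the mouse block, the conflicting library and each library left out. In the separate fits, edgeR tested the effect within each tissue. The difference between tissues was tested there on limma-voom coefficients by a t test for unequal variances. The scripts were tested on simulated data. Total counts limit precision most for rare genes. The 7 hypothalamus libraries entered 1 alternative only.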

Additional observations from a re-analysis of the deposited data

Results flagged for a closer look

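Groups of 4 or 5 libraries were examined by Dixon's test, which leaves out vehicle fat with its 3 libraries, vehicle fat 4 among them. Among the 135 groups, which share libraries and are not independent, 12 held a library far from its neighbours, and chance flags about 1 in 20 groups. Oxaliplatin fat 5 was that library in 5: Pfkfb3 at 464 CPM against 181 in the next library, Hr at 20.0 against 6.44, P3h4 at 7.28 against 6.63, the adipocyte sum at 26442 against 18147 and the fibroblast sum at 8401 against 2543. In muscle, the library far above the others was vehicle 2 for Flvcr2 (2.14 CPM), vehicle 3 for Slc6a9, a glycine transporter (12.4 CPM), and for the erythroid sum (1575 CPM), vehicle 1 for Rell1 (20.1 CPM) and oxaliplatin 5 for Hr (26.3 CPM). The library far below was oxaliplatin 1 for Synpo2 (1119 CPM) and oxaliplatin 2 for Sh3tc1 (6.14 CPM).

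The response to oxaliplatin differed between fat and muscle by the edgeR test of the difference itself for 67 genes, among them Pfkfb3 (-3.10), Sfrp5 (-3.09), Golga7b (-4.58) and Rgs2 (5.02) on the log2 scale.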

How the results depend on the processing

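Main values are 67 genes called for the difference (20 higher and 47 lower in fat), 1745 for fat and 31 for muscle. The 67 kept their direction in every alternative in which they were tested. Counts that moved by more than 1.5 times follow, and the cause was not tested. Upper quartile scaling gave 17 for muscle. DESeq2 gave 657 for the difference (249 higher, 408 lower) and 164 for muscle. limma-voom gave 8 higher and 9 for muscle, and its quality weights 9 higher. Each tissue fitted on its own gave 29 for the difference by limma-voom (7 higher, 22 lower) and 4 for fat by edgeR, and no filter gave 10 higher. A log2 size of at least 1 gave 881 for fat and 20 for muscle. All 23 libraries gave 603 (265 higher, 338 lower), 2760 for fat and 90 for muscle. The conflicting muscle library set to vehicle gave 22 (4 higher, 18 lower) and, by edgeR, 0 for muscle, with 744 at an unadjusted p under 0.05. Leaving out vehicle fat 4 and oxaliplatin fat 5 together, chosen after seeing the data, gave 1468 (680 higher, 788 lower), 2967 for fat and 48 for muscle.

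With the mouse number as a replicate block in the 7 mice with both tissues, edgeR called 2 genes (1 higher, 1 lower), with 1524 at an unadjusted p under 0.05. The same mice with no block gave 14 (1 higher, 13 lower) and 0 for muscle (834 at an unadjusted p under 0.05), and limma with mouse as a random effect gave 15 (1 higher, 14 lower) and 6 for muscle. No mouse's muscle and fat libraries correlated best with each other (0 of 7).

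Leaving out 1 library at a time, the difference ranged from 15 (without oxaliplatin fat 3) to 1732 (without oxaliplatin fat 5), with 0 to 797 higher and 14 to 935 lower. Fat ranged from 444 to 3814 and muscle from 0 to 41. The count for muscle was 0 by edgeR without vehicle muscle 2, vehicle muscle 3 or oxaliplatin muscle 1, with 1192, 1021 and 1008 genes at an unadjusted p under 0.05. Few counts limit Golga7b most, at 2 in a pair of oxaliplatin fat libraries.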

Other observations

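Sfrp5 and Golga7b, which had the smallest adjusted p-values of the comparison, are neighbours on chromosome 19. They lie 45.3 kb apart and point away from each other, with 0 protein-coding genes between them. Of the 12 protein-coding genes from 200 kb before the pair to 200 kb after it, 10 were tested, and the 8 others were not called: Morn4, the lowest in p of these, had -1.76 in fat and -0.42 in muscle, with an edgeR adjusted p of 0.158 for the difference, and Zfyve27, the next gene beside Sfrp5, had 0.11 and -0.10. The pair was looked at after its values were seen.

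Among lists not described above, 24 tested NRF2 target genes had a median difference of 0.53, and none was called for the difference. The glutathione transferase Gstm2 was higher with oxaliplatin in muscle (log2 0.95, adjusted p = 0.0323) at -0.14 in fat. Hmox1, the heme oxygenase, was higher in fat (log2 2.40) at 0.02 in muscle. Without oxaliplatin fat 5, 9 of the 24 were called higher and 2 lower (5.68% and 6.66% of all genes), and without vehicle fat 4 none was called. The immediate early gene Egr1 rose in muscle (log2 1.02, adjusted p = 0.0323) with -0.11 in fat, and its difference had an edgeR adjusted p of 0.0605. Without oxaliplatin fat 5, 5 of the 23 genes of its list were called higher (5.68% of all genes) and 3 lower (6.66%). Without vehicle fat 4, 1 was called lower (0.205% of all genes) and none higher. Of 40 nuclear genes of oxidative phosphorylation, 35 had a negative difference, against 6637 of all 14088 genes tested. Their median difference was -0.34, and none was called. The 20 skeletal muscle markers had a median difference of -5.15, which was 1.36 without vehicle fat 4.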
